A study of Bos grunniens with 6 samples.

Results

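The genes described here encode the proteasome, and were taken as the rows whose pathway annotation in the deposited table holds the term Proteasome, together with PSMB8 and PSMB9, which were already among them. The rule gave 44 of 15646 genes, and 41 of the 44 reached the mean of 0.5 FPKM (sequenced fragments scaled by gene length and library size) required for testing. Their mRNA was compared between cultured dermal papilla cells (DPC), mesenchymal cells of the base of the hair follicle, and cultured hair matrix cells (HMC), the epithelial cells around the papilla that form the hair. All 6 cultures came from skin of wild-type yak (Bos grunniens), 3 of each cell type, and grew in DMEM/F12 with 10% FBS, EGF at 20 ng/mL, IGF1 at 10 ng/mL and 1% penicillin-streptomycin. The labels call the replicates biological, but animal ages and the number of animals were not given in the sources used here, and p-values measure the spread between these cultures.

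The proteasome is the main protease of the cytosol and nucleus and degrades proteins tagged with ubiquitin. Its core particle is a barrel of alpha and beta rings, in which the beta subunits PSMB5, PSMB6 and PSMB7 cut the chain, and a regulatory particle with a base and a lid recognises, unfolds and feeds in the substrate. Interferon and other inflammatory signals induce the replacement subunits PSMB8, PSMB9 and PSMB10, which together form the immunoproteasome and change the peptides offered on MHC class I molecules. Most cells outside the immune system carry mainly the constitutive form unless they are stimulated.

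Reads recovered from the step size of the FPKM values summed to between 13098760 and 13999664 per library, as lower limits. HMC had a higher sum of FPKM over all genes (649603 ± 1959) than DPC (552420 ± 3113; SD, n = 3 each). The listed markers followed the labels: 10 of 10 papilla and mesenchyme markers were higher in DPC and 8 of 8 epithelial markers in HMC. Both lists were chosen with earlier results of these data known. The epithelial markers are general ones and do not single out the hair matrix. In limma, 75.9% of the 11883 tested genes passed the adjusted threshold of 0.05, 46.2% higher in HMC and 29.7% higher in DPC. FPKM corrects for depth and gene length but not for RNA composition, and over all tested genes the log2 differences (DPC minus HMC) had a median of -0.15. It became -0.02 after median-of-ratios rescaling, 0.04 after quantile normalization and 0.05 after rescaling each library to the same sum, and small differences are read against that shift. In a bulk culture, fewer cells of a type and less RNA per cell cannot be told apart.

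Most proteasome genes were modestly higher in HMC, and the immune subunits departed from the rest in both directions. Of the 41 tested genes, 33 were higher in HMC, 1 (PSMB10) was higher in DPC, and 7 did not pass. Those 33 are 80.5% of the tested members, where the share was 46.2% over all tested genes, and 29.7% of those were higher in DPC. The middle 50% of the members' log2 differences lay between -0.54 and -0.30 around a median of -0.43, while for all tested genes that span ran from -0.64 to 0.33. Few of the differences were large: 3 members (PSMB8, PSMB9 and PSME4) were at least 2-fold higher in HMC on the tested scale, which is 7.32%, against 16.1% of all tested genes. Scaling moved the split. With 33 higher in HMC and 1 in DPC as deposited, the counts were 30 and 3 after median-of-ratios rescaling, 23 and 4 after rescaling to an equal sum, and 20 and 4 after quantile normalization. Over all tested genes the shares higher in HMC and in DPC were then 38% and 36.3%, 34.4% and 40.2%, and 34.4% and 39.8%. The same 20 genes were higher in HMC under all of these scalings, and PSMB10 was the gene that was higher in DPC under all of them.

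**Figure D1:**
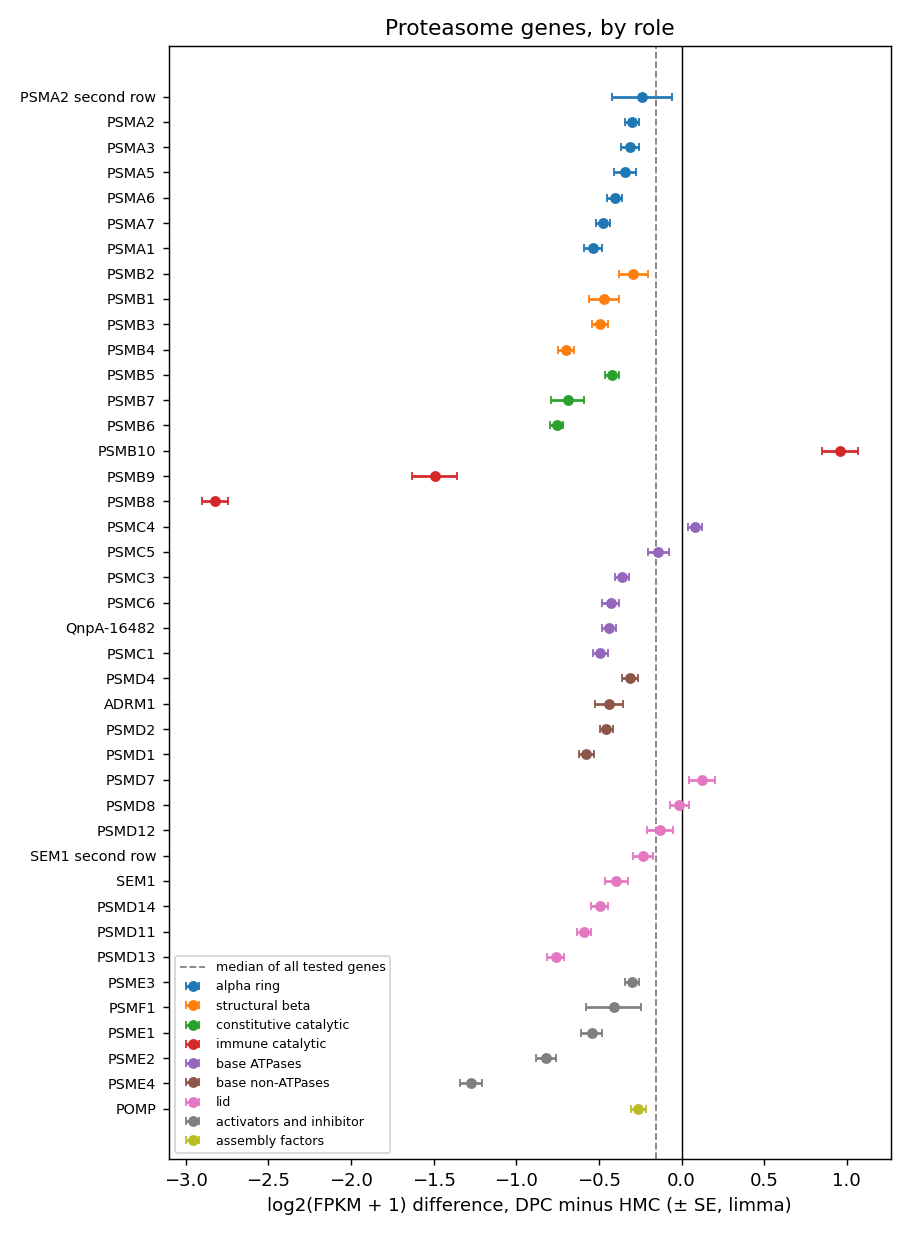
Log2(FPKM + 1) difference between DPC and HMC (x axis, ± SE from limma) for the 41 tested proteasome genes, grouped and coloured by role, with the dashed line at the median of all tested genes (-0.15). Of the 41 points 31 sit between -0.2 and -0.8, PSMB8 lies farthest toward HMC at -2.82, and PSMB10 lies at 0.96 on the DPC side.

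The 3 constitutive catalytic genes were all higher in HMC (46.2% of all tested genes). PSMB5 (ENSBGRG00000005400), whose product cuts after hydrophobic residues, was at 260.6, 260.1 and 260.02 FPKM in DPC replicates 1 to 3 and at 367, 348 and 332 FPKM in HMC. The DPC cultures lay within 1 FPKM of each other and below every HMC culture (log2 difference -0.42, SE 0.04, limma adjusted p = 2.63e-05). PSMB6 (ENSBGRG00000025721), which cuts after acidic residues, was at 191, 185 and 181 FPKM in DPC and 325, 307 and 311 FPKM in HMC. The groups did not overlap, and the mean was 1.69-fold higher in HMC (log2 difference -0.76, SE 0.04, limma adjusted p = 3.63e-07). PSMB7 (ENSBGRG00000018037), which cuts after basic residues, was at 11.95, 15.4 and 12.1 FPKM in DPC and 22.2, 20.7 and 22.2 FPKM in HMC (log2 difference -0.69, SE 0.10, limma adjusted p = 0.000258). All of these passed in the same direction under the other scalings too.

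PSMB7 stood far below its partners in FPKM, although these subunits occupy the core in equal numbers. Its reads were 707, 894 and 708 in DPC and 1346, 1271 and 1377 in HMC, against 2716 to 2781 for PSMB5 in DPC and 3715 to 4021 in HMC. Reads and FPKM together imply that the authors' gene model was 4425 bases long for PSMB7, 798 for PSMB5 and 726 for PSMB6, if the sum of recovered reads was the divisor. The same reckoning gives 3664 bases for PSMB1 and 2538 for PSMB9. Levels of different genes are therefore set side by side below only with that caution, while a comparison of 1 gene between DPC and HMC uses the same length on both sides.

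The immune subunits moved apart from each other. PSMB8 (ENSBGRG00000022108), which replaces PSMB5, was at 6.79, 5.48 and 6.67 FPKM in DPC and 52.5, 49.8 and 49.3 FPKM in HMC. All HMC cultures were far above all DPC cultures, with a mean of 50.5 ± 1.72 against 6.31 ± 0.726 FPKM (SD, n = 3 each), 8.01-fold higher (log2 difference -2.82, SE 0.08, limma adjusted p = 1.04e-08). Only 4.19% of tested genes had a difference farther toward HMC.

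PSMB9 (ENSBGRG00000021991), which replaces PSMB6, was low in both cell types, at 0.236, 0.663 and 0.684 FPKM in DPC and 3.02, 3.66 and 3.12 FPKM in HMC. These values rest on 8, 22 and 23 reads in DPC and 105, 129 and 111 reads in HMC. The groups did not overlap (log2 difference -1.49, SE 0.14, limma adjusted p = 1.72e-05). The pseudocount of 1 compresses a gene at this level, and the mean FPKM was 6.19-fold higher in HMC.

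PSMB10 (ENSBGRG00000023431), which replaces PSMB7, went the other way. It was at 12.5, 10.3 and 13.1 FPKM in DPC and 6.43, 5.35 and 5.18 FPKM in HMC, from 204, 165 and 212 reads against 108, 91 and 89. Every DPC culture was above every HMC culture, with a mean 2.11-fold higher in DPC (log2 difference 0.96, SE 0.11, limma adjusted p = 6.24e-05). The 3 immune genes thus ranked PSMB10, PSMB8, PSMB9 by FPKM in DPC, and PSMB8, PSMB10, PSMB9 in HMC. In each DPC culture PSMB10 was above PSMB8, and in each HMC culture it was below.

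**Figure D2:**
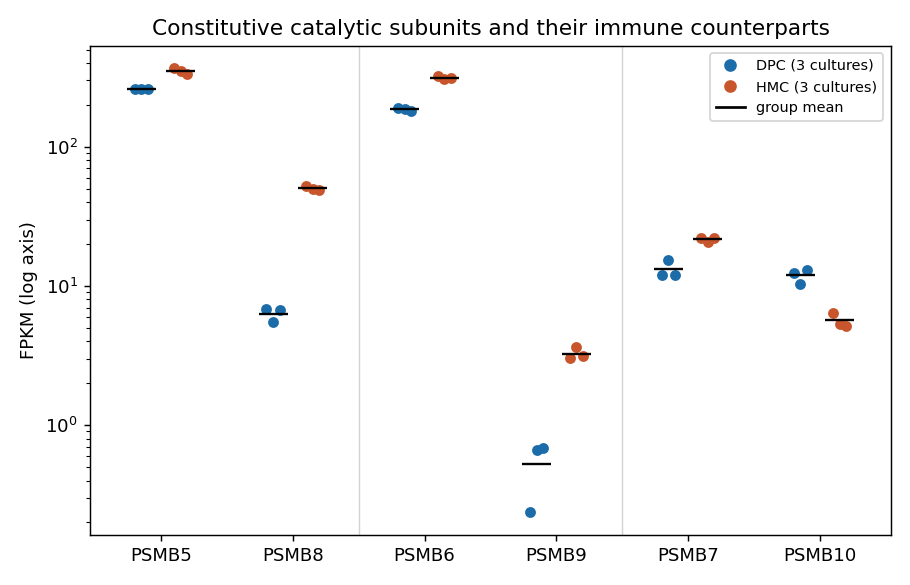
FPKM (log axis) of each constitutive catalytic gene beside the immune gene that replaces it, with 1 point per culture in DPC and HMC and a bar at each group mean. PSMB8 and PSMB9 sit higher in HMC with their counterparts PSMB5 and PSMB6, while PSMB10 falls from a mean of 11.9 FPKM in DPC to 5.65 in HMC as PSMB7 goes from 13.2 to 21.7.

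Ratios within a library are not moved by a single factor applied to the whole library. PSMB8 amounted to 2.60, 2.11 and 2.56% of PSMB5 in DPC and 14.3, 14.3 and 14.9% in HMC. The ratio was 6.001-fold higher in HMC on the log scale, and no DPC culture came near the HMC range (exact permutation p = 0.1, two-sided, the smallest that 3 against 3 can give). PSMB9 amounted to 0.123, 0.357 and 0.379% of PSMB6 in DPC and 0.93, 1.19 and 1.004% in HMC, a 4.05-fold higher ratio in HMC. DPC replicate 1, with the 8 reads of PSMB9, was the lowest, and without it the difference of the log2 ratio was -1.49 in place of -2.02. PSMB10 amounted to 104, 66.6 and 108% of PSMB7 in DPC and 28.97, 25.8 and 23.3% in HMC, a 3.502-fold higher ratio in DPC. For each of these 3 ratios the groups did not overlap, and each gave an exact permutation p of 0.1 (0.1 after Benjamini-Hochberg adjustment over the 3), which cannot pass the threshold in this design.

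Summed over PSMB5 to PSMB10, the immune genes took 4.03, 3.44 and 4.31% of the catalytic FPKM in DPC and 7.98, 8.004 and 7.97% in HMC. The HMC cultures were nearly identical, and constitutive subunits made up most of the catalytic mRNA in every culture of both types. PSMB8 set the direction of that share. Without it, PSMB9 and PSMB10 took 2.64 ± 0.312% in DPC and 1.28 ± 0.0451% in HMC (SD, n = 3 each), the reverse order. Counted in reads, which are not divided by gene length and so weight the longer models more, the immune share was 5.04 ± 0.612% in DPC and 8.72 ± 0.124% in HMC.

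**Figure D3:**
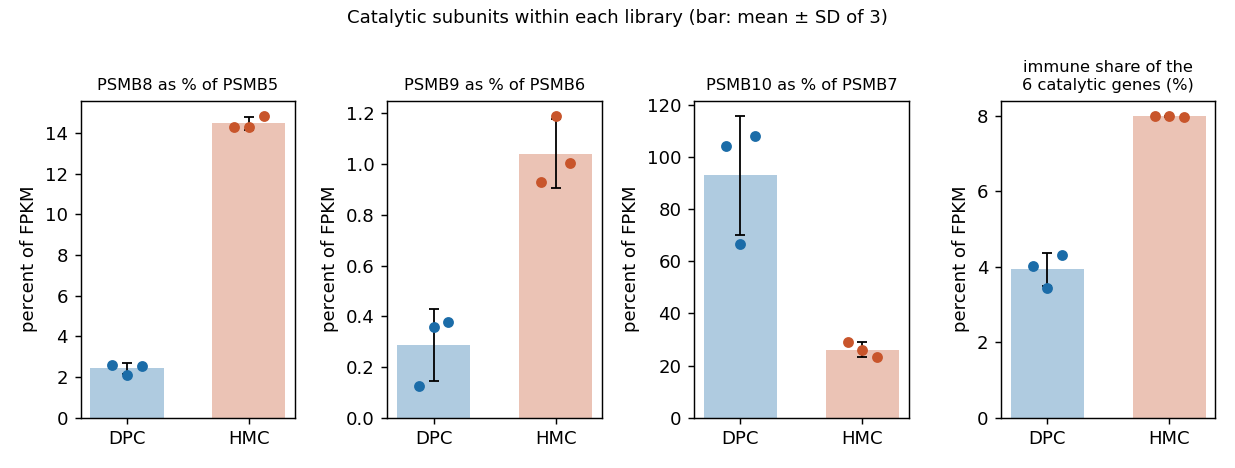
Each immune catalytic gene as a percentage of the FPKM of the constitutive gene it replaces, and the immune share of all 6 catalytic genes, with 1 point per culture, bars at the mean and error bars of 1 SD (n = 3). The HMC points lie above the DPC points for PSMB8, PSMB9 and the share (7.97 to 8.004% against 3.44 to 4.31%), and below them for PSMB10.

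The remaining catalytic gene, PSMB11, encodes the beta subunit of the thymus and fell below the filter on low values. With no filter it was higher in HMC (log2 difference -0.61, limma adjusted p = 0.00129). It had 1, 0 and 0 reads in DPC and 5, 10 and 6 reads in HMC, at 0.416 to 0.822 FPKM there. In the RefSeq annotation of another yak assembly (Bosgru_T2T1.0) PSMB11 is the protein-coding neighbour of the abundant PSMB5. Whether reads of PSMB5 reach it was not tested.

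The non-catalytic core subunits differed by small factors. PSMA1, the alpha subunit with the largest difference, was at 102, 91.1 and 101 FPKM in DPC and 137, 145 and 147 FPKM in HMC (log2 difference -0.54, limma adjusted p = 3.15e-05). PSMA7, the most abundant alpha gene, was at 133, 132 and 134 FPKM in DPC and 181, 181 and 194 FPKM in HMC (log2 difference -0.48, limma adjusted p = 9.85e-06). Neither gene overlapped between the groups. Of 7 tested alpha rows 6 were higher in HMC (46.2% of all tested genes). The 1 that did not pass was a second row of PSMA2 (in the table HC3) with means of 9.92 (DPC) and 11.6 FPKM (HMC). The main PSMA2 row stood at 128 and 157 FPKM. PSMA2 rows may share reads, as may a second PSMA7 row, which was above 0 only in HMC replicate 3, at 0.117 FPKM. An alpha subunit row under the clone name QtsA-15547, annotated to the spermatoproteasome, was above 0 only in HMC replicate 1, at 0.0727 FPKM. A row above 0 in 1 library always recovers as 1 read, so its true count is not known.

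All 4 structural beta genes, PSMB1 to PSMB4, were higher in HMC (46.2% of all tested genes). PSMB4, the most abundant of them, was at 125, 117 and 114 FPKM in DPC and 193, 198 and 188 FPKM in HMC. The mean was 1.63-fold higher in HMC without overlap (log2 difference -0.70, SE 0.05, limma adjusted p = 1.90e-06). PSMB2 varied most among the HMC cultures, at 131, 154 and 126 FPKM, and it no longer passed without DPC replicate 1 (limma adjusted p = 0.054, log2 difference -0.22 against -0.29 with all cultures). PSMA2, PSMA3, PSMA5 and PSMB2 did not pass after quantile normalization or after rescaling to an equal sum, and PSMA6 and PSMB1 did not pass after the former. PSMB2 also lost its call after median-of-ratios rescaling (limma adjusted p = 0.203).

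In the regulatory particle, the hexameric base of ATPases that unfold substrates had 4 of 6 genes higher in HMC (46.2% of all tested genes). PSMC1, with the largest difference and the highest mean level of these, was at 79.1, 72.7 and 78.7 FPKM in DPC and 108, 109 and 108 FPKM in HMC (log2 difference -0.49, limma adjusted p = 1.65e-05). A row under the clone name QnpA-16482, annotated as a proteasome-activating ATPase, averaged 67.8 ± 1.97 (DPC) and 92.4 ± 1.69 FPKM (HMC; SD, n = 3 each). PSMC3 (TBP1) lost its call after quantile normalization. The exceptions were PSMC4 and PSMC5. PSMC4 was at 87.6, 86.3 and 87.5 FPKM in DPC and 85.7, 79.6 and 81.3 FPKM in HMC, every HMC culture below every DPC culture by a small margin (log2 difference 0.08, limma adjusted p = 0.106). It was called higher in DPC after each of the other scalings, with log2 differences of 0.24 to 0.38. PSMC5 (SUG1) overlapped between the groups, at 51.1 to 52.7 FPKM in DPC and 52.5 to 61.4 FPKM in HMC (log2 difference -0.14, limma adjusted p = 0.072). It passed without HMC replicate 2 (log2 difference -0.20, limma adjusted p = 0.00903) and in voom on the recovered reads (adjusted p = 0.04). After the other scalings its difference was 0.014 to 0.14 on the DPC side without passing.

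The base also holds scaffold and ubiquitin receptor subunits, and all 4 of those genes were higher in HMC (46.2% of all tested genes). PSMD1, a large scaffold, was at 41.6, 43.9 and 41.2 FPKM in DPC and 65.5, 61.97 and 62.9 FPKM in HMC (log2 difference -0.58, SE 0.05, limma adjusted p = 8.08e-06). PSMD2 (TRAP2), the other large scaffold and the most abundant of the 4, was at 153, 147 and 158 FPKM in DPC and 213, 212 and 204 FPKM in HMC (log2 difference -0.45, limma adjusted p = 1.32e-05). The ubiquitin receptors PSMD4 (MCB1) and ADRM1 (GP110) had log2 differences of -0.31 and -0.44. Both receptors lost their call after quantile normalization and after rescaling to an equal sum.

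The lid, which removes ubiquitin chains before the substrate enters, had 5 of 8 rows higher in HMC (46.2% of all tested genes). After quantile normalization and after rescaling to an equal sum, 3 lid rows were higher in HMC and 2 in DPC. Over all tested genes 34.4% were higher in HMC after either, and 39.8% and 40.2% in DPC. PSMD13 was at 111, 106 and 122 FPKM in DPC and 193, 191 and 192 FPKM in HMC, 1.70-fold higher on average (log2 difference -0.76, SE 0.05, limma adjusted p = 2.55e-06). PSMD14 (in the table Pad1), the deubiquitinase of the lid, was at 64.6, 65.7 and 61.8 FPKM in DPC and 91.5, 85.7 and 94.6 FPKM in HMC (log2 difference -0.49, limma adjusted p = 3.33e-05). Beside these, PSMD11 had a log2 difference of -0.59, and the rows of SEM1 (in the table DSS1) had -0.39 and -0.23. Both SEM1 rows, which may share reads, lost their call after quantile normalization and after rescaling to an equal sum, and the second row also after median-of-ratios rescaling (limma adjusted p = 0.286). The second row stood at 0.0496 on the DPC side after quantile normalization.

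The other 3 lid genes did not pass. PSMD8, the most abundant gene of the lid, was at 270.5, 246 and 269 FPKM in DPC and 276, 271 and 246 FPKM in HMC, with the groups overlapping over most of their range (log2 difference -0.01, limma adjusted p = 0.837). After quantile normalization and after rescaling to an equal sum it was called higher in DPC, by 0.24 and 0.22, and after median-of-ratios rescaling it stood at 0.14 without passing. PSMD7 was at 75.2, 85.8 and 82.2 FPKM in DPC and 69.95, 70.6 and 82.8 FPKM in HMC, where replicate 3 alone reached the DPC range (log2 difference 0.12, limma adjusted p = 0.177). Without HMC replicate 3 it passed (log2 difference 0.20, limma adjusted p = 0.0219), as it did under each of the other scalings, with 0.28 to 0.42. PSMD12 was at 43.1, 43.1 and 46.9 FPKM in DPC and 45.1, 46.3 and 54.9 FPKM in HMC, with the groups overlapping (log2 difference -0.13, limma adjusted p = 0.168), and lay at 0.022 to 0.16 on the DPC side after the other scalings without passing. PSMD3, a further lid subunit that the table does not annotate to the pathway, averaged 79.1 ± 1.40 (DPC) and 117 ± 3.01 FPKM (HMC; SD, n = 3 each; log2 difference -0.55).

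In mRNA, the regulatory genes and the non-catalytic core genes kept nearly the same proportion in both cell types. The core mean here covers alpha and structural beta rows, the second PSMA2 row among them, and leaves out the catalytic genes. As geometric means, the core was 1.34-fold and the regulatory genes 1.27-fold higher in HMC. Summed FPKM, an unlike measure, was 1.49-fold higher in HMC for PSMB5, PSMB6 and PSMB7. By that sum, structural beta genes were 1.43-fold and alpha rows 1.33-fold higher. The base scaffolds and receptors were 1.35-fold higher, and the base ATPases and the lid 1.23-fold each. The geometric mean over the tested alpha and structural beta genes was 61.3 ± 2.71 (DPC) and 82.1 ± 0.756 FPKM (HMC), and over the tested regulatory genes it was 76.05 ± 0.221 and 96.3 ± 1.01 FPKM (SD, n = 3 each). The ratio of the regulatory to the core mean was 1.31, 1.19 and 1.23 in DPC and 1.19, 1.15 and 1.18 in HMC. DPC replicate 2 reached the HMC range. All proteasome genes together took 0.433 ± 0.00254% of reads in DPC and 0.584 ± 0.00378% in HMC, and 0.596 ± 0.00241% and 0.681 ± 0.00351% of the summed FPKM.

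Activators cap the core in place of the regulatory particle, and all 4 activator genes were higher in HMC (46.2% of all tested genes). PSME1 and PSME2 encode the interferon-inducible ring that favours peptides for MHC class I. PSME1 was at 58.4, 57.2 and 59.2 FPKM in DPC and 86.7, 92.4 and 77.6 FPKM in HMC (log2 difference -0.54, SE 0.06, limma adjusted p = 8.69e-05). PSME2 was at 50.6, 56.3 and 58.4 FPKM in DPC and 102, 94.5 and 96.7 FPKM in HMC (log2 difference -0.82, SE 0.06, limma adjusted p = 4.69e-06). Neither overlapped, and PSME2 was above PSME1 in all 3 HMC cultures and below it in all 3 DPC cultures.

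PSME3 and PSME4 encode activators that work mainly in the nucleus. PSME3, the most abundant gene of the class, was at 119, 112 and 119 FPKM in DPC and 147, 140.3 and 144 FPKM in HMC (log2 difference -0.30, limma adjusted p = 0.000216). Its call was lost after quantile normalization and after rescaling to an equal sum. PSME4, which caps proteasomes acting on histones, was at 10.7, 10.97 and 11.3 FPKM in DPC and 26.5, 30.4 and 27.2 FPKM in HMC. It was 2.55-fold higher in HMC without overlap (log2 difference -1.27, SE 0.07, limma adjusted p = 4.64e-07), the largest difference outside the immune subunits. Relative to PSME3 in the same library, PSME4 stood at 9.42 ± 0.401% in DPC and 19.5 ± 1.92% in HMC (SD, n = 3 each).

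**Figure D4:**
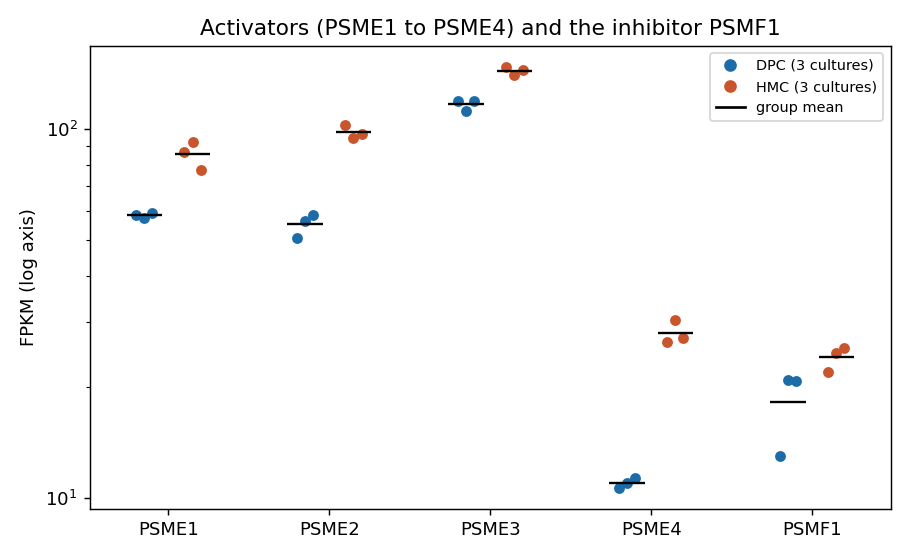
FPKM (log axis) of the activator genes PSME1 to PSME4 and the inhibitor PSMF1, with 1 point per culture in DPC and HMC and a bar at each group mean. PSME4 shows the widest gap, 10.98 against 28.03 FPKM on average, and PSMF1 the widest spread within DPC.

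PSMF1 encodes an inhibitor of the core. It was at 12.97, 20.9 and 20.7 FPKM in DPC and 21.9, 24.7 and 25.5 FPKM in HMC, so DPC replicate 1 lay apart and the other DPC cultures were just below the HMC range. The log2 difference was -0.41 and it did not pass (limma adjusted p = 0.0533). Without DPC replicate 2 or 3 it passed (limma adjusted p = 0.0321 and 0.0367), and voom, which weights the recovered reads, gave an adjusted p of 0.0183. POMP, the chaperone that guides assembly of the core, averaged 141 ± 4.27 (DPC) and 169 ± 7.09 FPKM (HMC; SD, n = 3 each), with a log2 difference of -0.26 (limma adjusted p = 0.000768). The POMP call was lost under each of the other scalings.

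**Figure D5:**
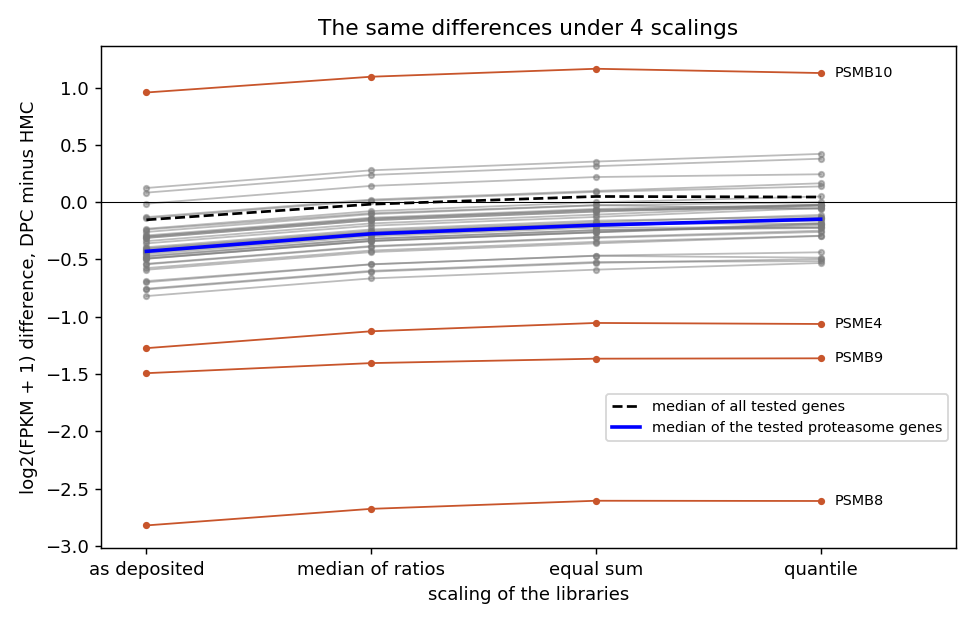
Log2(FPKM + 1) difference between DPC and HMC for each tested proteasome gene (lines) under 4 scalings of the libraries (x axis), with the median of all tested genes dashed and the median of the proteasome genes in blue. The member median moves from -0.43 as deposited to -0.15 after quantile normalization. PSMB8, PSMB9, PSMB10 and PSME4 keep their side of 0, as do most members. The lines of PSMC5, PSMD8, PSMD12 and the second SEM1 row cross it.

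Genes outside the annotation that build, supply or regulate the proteasome were taken from lists of known factors. A first list held regulators and partners of the response that restores proteasome genes when the enzyme is short, and 4 of its 4 tested genes were higher in HMC, where 46.2% of all tested genes were. After quantile normalization 3 passed, TXNL1 no longer among them. NFE2L1, the transcription factor that induces most proteasome subunits, stood at 78.6, 80.7 and 78.9 FPKM in DPC and 125, 123 and 119.9 FPKM in HMC (log2 difference -0.62, limma adjusted p = 1.14e-06). NFE2L2, its relative in the oxidative stress response, stood at 53.2 ± 2.31 and 98.5 ± 2.28 FPKM, and NGLY1 (PNG1), the glycanase that activates NFE2L1, at 13.5 ± 0.297 and 22.7 ± 1.27 FPKM (SD, n = 3 each). The proteasome-bound thioredoxin TXNL1 (TRP32) was the most abundant, at 112 and 145 FPKM.

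Of 8 tested assembly factors other than POMP, 4 were higher in HMC, 2 in DPC and 2 did not pass, a split near the 46.2% and 29.7% of all tested genes. The base chaperone PSMD10 (53.4 ± 2.22 and 76.7 ± 9.74 FPKM; log2 difference -0.51) and the nuclear import factor AKIRIN2 (45.1 ± 4.02 and 60.4 ± 2.21 FPKM; -0.42) had the largest differences, followed by the alpha ring chaperone PSMG2 (-0.33). The base chaperones PSMD9 and PAAF1 (WDR71) were the ones higher in DPC, by 0.23 and 0.30. PSMG2 did not pass under any of the other scalings (limma adjusted p = 0.164 to 0.724). It no longer passed without DPC replicate 1 or 3, nor did PSMD9 without DPC replicate 1, DPC replicate 3 or HMC replicate 1 (limma adjusted p = 0.0511 to 0.0802). After quantile normalization the list had 1 gene higher in HMC and 3 in DPC.

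Of 11 tested genes that deliver or trim substrates, 9 were higher in HMC and 1 in DPC, against 46.2% and 29.7% over all tested genes. After rescaling to an equal sum the counts were 6 and 1, against 34.4% and 40.2%. The segregase VCP averaged 185 ± 3.76 (DPC) and 264 ± 8.82 FPKM (HMC), and the deubiquitinase UCHL5 at 44.8 ± 2.26 and 63.2 ± 4.68 FPKM (SD, n = 3 each). The shuttle factor gene RAD23B was higher in HMC (156 ± 0.638 against 206 ± 6.09 FPKM; log2 difference -0.39). Of 5 ubiquitin and ubiquitin-activating genes, 4 were higher in HMC (46.2% of all tested genes). The ubiquitin-activating genes UBA6 (MOP4) and UBA1 (UBE1) differed by -0.65 and -0.52 on the log2 scale. The most abundant, the polyubiquitin gene UBB, averaged 1089 ± 13.6 and 1059 ± 15.1 FPKM without passing (limma adjusted p = 0.185), and was called higher in DPC by 0.20 to 0.27 under the other scalings.

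PSMB8 and PSMB9 lie in the MHC region. In the RefSeq order of the other assembly, TAP2, PSMB8, TAP1 and PSMB9 follow each other without another protein-coding gene between them. TAP1, a subunit of the transporter that carries proteasome products into the endoplasmic reticulum, was at 2.72, 1.95 and 2.85 FPKM in DPC and 29.96, 28.8 and 31.9 FPKM in HMC (log2 difference -3.16, SE 0.11, limma adjusted p = 2.92e-08). Its mean was 12.1-fold higher in HMC, next to 8.01-fold for PSMB8 and 6.19-fold for PSMB9. TAP2 (ABCB3), its partner subunit at the other end of the row, was 1.58-fold higher (log2 difference -0.63). The libraries were made with a stranded kit, per the labels, but the counter's strand setting and its treatment of overlapping genes were not given in the sources used here. PSMB10 lies elsewhere, between CTRL and LCAT in that annotation.

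Among 7 tested genes of the class I peptide path, 5 were higher in HMC and 2 in DPC, the latter near the 29.7% of all tested genes, of which 46.2% were higher in HMC. The counts were 3 and 2 after rescaling to an equal sum and 4 and 2 after the other scalings. B2M, the light chain of class I molecules, averaged 56.9 ± 4.01 (DPC) and 147 ± 4.24 FPKM (HMC; log2 difference -1.36). ERAP2, a peptide trimming enzyme, went toward DPC (8.37 ± 0.755 and 5.04 ± 0.488 FPKM; log2 difference 0.63). PDIA3 (GRP58), of the loading complex, was the most abundant at 655 and 765 FPKM, a difference of -0.22 that became 0.0092 after rescaling to an equal sum.

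The interferon signalling list had 11 tested genes, 7 of them higher in HMC and 3 in DPC, the latter near the background of 29.7% (46.2% for HMC). After quantile normalization the counts were 6 and 5, and after the other scalings 6 and 4. The type I receptor genes IFNAR1 and IFNAR2 (IFNARB) had log2 differences of -1.22 and -1.33. IRF1, a transcription factor known to induce the immune subunits, was higher in DPC, at 21.7, 18.7 and 20.6 FPKM against 8.89, 7.98 and 6.23 FPKM (log2 difference 1.31, SE 0.12, limma adjusted p = 1.53e-05). The receptor gene IFNGR1 was also higher in DPC (23.8 ± 2.35 and 12.5 ± 1.14 FPKM). IFNGR2, the most abundant of the list, was higher in HMC by 0.16, but higher in DPC by 0.15 after quantile normalization and by 0.07 after rescaling to an equal sum. The interferon response factors IRF2 and IRF9 (ISGF3G) were higher in HMC, with log2 values of -1.21 and -1.04.

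Leukocytes carry immunoproteasomes, and their markers were examined beside these values. Of 13 leukocyte markers found in the table, 7 had means under 0.5 FPKM in both cell types: CD3E, CD79A, TYROBP, CSF1R (FMS), ITGAM (CD11B), ITGB2 (CD18) and CD52 (CDW52). Among these, CD79A, ITGAM, ITGB2 and CD52 were at 0 in all DPC cultures, and their HMC means lay between 0.012 and 0.13 FPKM. Of the 6 tested, LAPTM5 was higher in DPC, CD74, CD14, AIF1 and CORO1A in HMC, and CD68 did not pass. CD74 (DHLAG), the invariant chain of MHC class II molecules, averaged 0.729 ± 0.311 (DPC) and 409 ± 10.5 FPKM (HMC; SD, n = 3 each). All 13 summed to between 16.4 and 18.6 FPKM in DPC and between 424 and 441 FPKM in HMC. The other 12 markers summed to between 15.9 and 17.6 FPKM in DPC and between 21.6 and 28.6 FPKM in HMC. Shifts in both directions lay within that sum. LAPTM5 averaged 9.46 (DPC) and 0.257 FPKM (HMC), AIF1 0.0511 and 6.48, CD14 2.47 and 10.1, and CORO1A 3.12 and 7.47 FPKM. The part of the markers that moved in the values of PSMB8 and PSMB9 was not tested.

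The cultures of a type were close to each other for these genes. The median coefficient of variation between replicates was 4.75% in DPC and 4.10% in HMC over the tested proteasome genes, and 6.64% and 7.16% over all tested genes. Of the 41 tested members, 36 had groups that did not overlap, which is 87.8%, against 77.9% of all tested genes. Beyond the annotation that chose them, 18 of the 44 rows also carried that of Epstein-Barr virus infection and 3 that of antigen processing and presentation.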

How the data were processed

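The deposited table holds FPKM as the authors computed it, 1 column per sample, beside gene symbols and pathway annotations. Per the submitters' processing notes, Trimmomatic, HISAT2 2.2.1.0 and DESeq 1.20.0 were used. Counter, build and annotation: not given in the sources used here. Rows under older symbols were read against their annotation, and current symbols are printed first. PSMA4, PSMD6, PSMG1 and NLRC5, among other listed genes, are not analysed here. The values of some listed genes are not reported here.

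Groups were compared with limma 3.58.1 (R 4.3.3) on log2(FPKM + 1), two-sided, with the prior variance following the mean. Genes averaging under 0.5 FPKM were left out, and p was adjusted over all 11883 genes by Benjamini-Hochberg. Values of 100% of genes were whole multiples of a step, which gave reads (within 0.001 of a whole number). They are lower limits. Ratios of catalytic genes were compared by exact permutation. The fit was tested on simulated data. Python 3.11.15, pandas 2.3.3 and matplotlib 3.10.9 were used.

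The genes named in full are the catalytic genes, PSME1, PSME2 and, in each role class or list, those of largest difference and highest mean. PSMC5, PSMD12, PSMD14, PSMB2, PSMF1, RAD23B, IFNGR1 and others beyond this were named after their values were seen. Members and lists were chosen with earlier results of these data known. Alternatives were a pseudocount of 0.1, no filter or one at 5 FPKM, other scalings, no trend, a replicate block and leaving out each culture. An equal sum per library and voom were chosen after seeing the data.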

Additional observations from a re-analysis of the deposited data

How the results depend on the processing

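The count of 34 proteasome genes past the threshold was 24 after quantile normalization, 27 after rescaling to an equal sum, and between 33 and 36 under the other alternatives tried. The 33 genes higher in HMC fell to 20 after quantile normalization. The 1 gene higher in DPC became 3 after median-of-ratios rescaling, 4 after quantile normalization and 4 after rescaling to an equal sum, and was 1 to 2 when single replicates were left out (2 without HMC replicate 1 or 3, with PSMC4 or PSMD7 added). The count over all genes, 9020, was 8560 to 8757 with a replicate left out. Leaving out single replicates gave differences of the log2 ratio of -2.64 to -2.49 for PSMB8 to PSMB5, -2.30 to -1.49 for PSMB9 to PSMB6 and 1.68 to 2.03 for PSMB10 to PSMB7. Of the genes called in at least 1 of these scalings, directions reversed for PSMD8 (0.24 with quantile normalization and 0.22 with an equal sum), the second SEM1 row (0.0496 with quantile normalization), PSMG4 (0.0646, likewise), TAPBP (0.103 and 0.0212), PDIA3 (0.0092 with an equal sum) and IFNGR2 (0.152 and 0.0695). PSMC5, PSMD12, PSMG3 and UBE3C also changed sign with the scaling, without passing on either side.

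Whether the replicate number pairs the samples was not settled: same-numbered cultures had correlations of deviations of 0.023, 0.034 and 0.0064. DPC replicates 1 and 2 correlated best with their own number, and DPC replicate 3 slightly better with HMC replicate 2 (0.0068). Correlations this small cannot decide it, and the number of animals was not given. With the replicate block 8924 genes and 35 proteasome genes passed, PSMF1 being added (adjusted p = 0.0127). Depth may limit PSMB9 in DPC and PSMB11, whose recovered reads, which are lower limits, were 23 or fewer per DPC library.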
